A study of Mus musculus with 6 samples.

Results

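The 41 genes described here encode the proteins that copy DNA in S phase of the cell cycle, and they were read in neural stem cells that lack Smchd1 and in wild type cells. They were taken by name: each gene of a list of DNA replication genes was looked up by its Entrez ID in the 6 deposited count tables, and all 41 were found among the 27179 IDs of those tables. The rule uses names alone and no measured value, but the 41 genes were chosen with earlier results of these data known. The 6 RNA-seq libraries are 3 from Smchd1 null cells, homozygous for the MommeD1 allele of Smchd1 (Smchd1MommeD1/MommeD1), and 3 from Smchd1 wild-type cells. Smchd1 is a chromatin protein with an SMC hinge domain and keeps genes of the inactive X chromosome and some autosomal clusters silent. All 6 libraries came from male C57BL/6 x FVB/N neural stem cells, derived from embryo brains at E14.5 and grown on laminin with EGF and bFGF at 20 ng/ml each. The labels do not say whether the replicates are separate embryos or cultures of 1 line, so a p-value here reflects no more than the spread of these libraries, and that spread may be technical.

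DNA replication starts when the origin recognition complex, Cdc6 and Cdt1 load the MCM2-7 ring onto DNA in G1. In S phase Cdc45 and the GINS complex join that ring to make the active helicase, primase lays down primers, polymerases delta and epsilon copy the strands on the sliding clamp PCNA, and Fen1 and Lig1 join the pieces of the lagging strand. Many of these genes are transcribed in late G1 and S under the control of E2F factors, so that in a culture their RNA moves with the share of cells about to replicate or replicating. In bulk RNA, fewer cells in S phase and less RNA per cell cannot be told apart.

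E2F factors bind short GC-rich sites, and promoter sequence was therefore read first. RefSeq promoter windows on GRCm38.p6, reaching from 250 bases before each gene's start to 50 bases after it, were at hand for 34 of the 41 genes. Each window was searched on both strands, with overlaps allowed, for the E2F-type spellings TTTCCCGC, TTTCGCGC, TTTGCCGC and TTTGGCGC. A gene with windows at several starts was counted once, and for the sequences below the window that holds a match is shown. At least 1 spelling was present for 15 of 34 replication genes (44.1%), against 4.86% of the 10639 tested genes with a window and 2.60% of all 27025 genes in the table. Windows with 2 or more matches belonged to 5 of the 34 (14.7%), against 0.244% of tested genes. CCAAT, the letters of the NF-Y box, was present on either strand for 22 of 34 (64.7%), against 43.5% of tested genes. The 20 mitotic genes that served as the cell cycle comparison had an E2F-type match in 1 of 17 windows (5.88%) and CCAAT in 15 of 17 (88.2%). A match is a run of letters and not a measured binding site.

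The 8 windows shown here belong to the 5 genes with 2 or more E2F-type matches and to Lig1, Cdc45 and Uhrf1, whose p-values between the genotypes were the smallest. Capitals mark the E2F-type matches, and each window is written 5′ to 3′ on the gene's own strand. Mcm3 lies at chr1:20820263-20820562 (minus strand), Mcm5 at chr8:75109259-75109558 (plus strand), Mcm6 at chr1:128359656-128359955 (minus strand) and Mcm7 at chr5:138171834-138172133 (minus strand). Rfc3 lies at chr5:151651159-151651458 (minus strand), Lig1 at chr7:13278576-13278875 (plus strand), Cdc45 at chr16:18811923-18812222 (minus strand) and Uhrf1 at chr17:56304063-56304362 (plus strand).
Mcm3: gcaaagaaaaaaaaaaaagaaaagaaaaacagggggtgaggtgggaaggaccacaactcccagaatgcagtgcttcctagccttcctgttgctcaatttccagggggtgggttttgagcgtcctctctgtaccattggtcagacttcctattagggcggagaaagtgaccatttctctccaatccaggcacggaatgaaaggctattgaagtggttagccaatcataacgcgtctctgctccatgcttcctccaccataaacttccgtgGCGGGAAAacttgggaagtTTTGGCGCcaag
Mcm5: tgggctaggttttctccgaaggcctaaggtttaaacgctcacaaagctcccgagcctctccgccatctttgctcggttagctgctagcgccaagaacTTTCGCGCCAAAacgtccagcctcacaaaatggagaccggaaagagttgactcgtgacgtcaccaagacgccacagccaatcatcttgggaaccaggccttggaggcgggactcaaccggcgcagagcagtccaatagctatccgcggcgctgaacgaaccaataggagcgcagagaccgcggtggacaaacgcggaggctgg
Mcm6: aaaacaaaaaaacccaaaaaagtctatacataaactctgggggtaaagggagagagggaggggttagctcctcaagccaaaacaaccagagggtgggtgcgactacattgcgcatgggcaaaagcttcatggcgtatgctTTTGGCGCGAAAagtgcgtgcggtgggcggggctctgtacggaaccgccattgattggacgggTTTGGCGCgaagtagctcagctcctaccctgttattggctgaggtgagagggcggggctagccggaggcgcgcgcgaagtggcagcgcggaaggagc
Mcm7: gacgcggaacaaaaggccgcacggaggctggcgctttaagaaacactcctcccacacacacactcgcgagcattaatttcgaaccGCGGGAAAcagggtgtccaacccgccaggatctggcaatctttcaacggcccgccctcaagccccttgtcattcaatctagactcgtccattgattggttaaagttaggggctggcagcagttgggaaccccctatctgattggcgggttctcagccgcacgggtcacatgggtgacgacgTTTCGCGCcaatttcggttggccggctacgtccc
Rfc3: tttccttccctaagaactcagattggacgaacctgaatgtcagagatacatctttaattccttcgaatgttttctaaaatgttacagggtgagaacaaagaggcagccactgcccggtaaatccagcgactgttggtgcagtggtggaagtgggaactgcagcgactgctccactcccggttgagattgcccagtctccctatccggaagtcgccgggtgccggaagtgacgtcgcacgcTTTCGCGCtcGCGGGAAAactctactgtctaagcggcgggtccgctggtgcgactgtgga
Lig1: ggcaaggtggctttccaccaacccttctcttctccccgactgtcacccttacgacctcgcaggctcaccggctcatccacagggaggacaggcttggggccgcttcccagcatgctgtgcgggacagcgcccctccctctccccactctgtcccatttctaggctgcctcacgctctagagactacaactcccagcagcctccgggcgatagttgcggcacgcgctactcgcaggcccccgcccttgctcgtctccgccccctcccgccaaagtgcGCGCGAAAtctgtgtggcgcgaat
Cdc45: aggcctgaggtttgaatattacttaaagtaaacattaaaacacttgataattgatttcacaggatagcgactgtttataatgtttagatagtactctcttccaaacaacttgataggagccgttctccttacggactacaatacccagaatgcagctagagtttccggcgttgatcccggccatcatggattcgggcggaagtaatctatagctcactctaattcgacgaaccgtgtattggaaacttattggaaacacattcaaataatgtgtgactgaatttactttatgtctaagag
Uhrf1: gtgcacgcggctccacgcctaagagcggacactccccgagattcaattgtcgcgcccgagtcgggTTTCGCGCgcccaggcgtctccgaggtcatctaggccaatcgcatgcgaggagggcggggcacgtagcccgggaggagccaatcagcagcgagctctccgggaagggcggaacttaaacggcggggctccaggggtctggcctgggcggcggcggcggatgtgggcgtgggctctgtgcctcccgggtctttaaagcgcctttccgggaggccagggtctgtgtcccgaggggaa
Counting the start as position 1, the 21 matches in the 15 genes begin between positions -185 and 40, with a median of -27. Mcm6 holds 3 matches, of which the pair at -110 and -106 overlap on opposite strands and the other begins at -47. Mcm5 has an overlapping pair at -153 and -149, so its capitals run through both. The remaining pairs are at 20 and 39 in Mcm3, at -165 and 17 in Mcm7 and at -10 and 1 in Rfc3. Single matches begin at 27 in Lig1 and at -185 in Uhrf1. Cdc45 has none of these letters in its window. TTTCCCGC, TTTCGCGC and TTTGGCGC supplied 7 matches each and TTTGCCGC supplied 0.

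The libraries matched their labels. Smchd1 had 30.3, 31.1 and 27.9 CPM in null replicates 1 to 3, against 271, 259.6 and 232 CPM in wild type replicates 1 to 3, a log2 fold change of -3.10 ± 0.085 (SE, adjusted p = 1.09e-06). CPM here is the count per M counts of the TMM-scaled library size, and log2 fold changes are null minus wild type from edgeR's quasi-likelihood test with Benjamini-Hochberg adjustment over the 14207 genes tested. All 10 neural stem cell marker genes, Nes and Sox2 among them, were expressed and tested. Their summed levels were 5955, 5890 and 5790 CPM in null replicates 1 to 3, against 6166, 5904 and 5843 CPM in wild type replicates 1 to 3. None of the 10 was called at an adjusted p under 0.05, where 0.507% of all tested genes were called higher and 0.0704% lower. Wild type replicate 3 was the highest library for 4 of the 10 and the lowest for 3, against 22.6% and 21.3% of all tested genes. Of 9 neuron markers tested only Nefl was called, higher in null, while Map2 and Gap43 made up most of that list's 1382 to 1418 CPM in null and 1480.4 to 1510.3 CPM in wild type. All null libraries were above wild type replicates 1 and 2 for 4 of the 9 and below both for 3. Of all tested genes, 31.1% and 30.1% showed these orders. The level of wild type replicate 3 over the mean of the other wild type libraries ran from 0.507 to 9.28, with a median of 1.16. The 5 microglia markers, 0 of them tested, summed to 0.141 to 0.281 CPM in null and 0 to 0.298 CPM in wild type, with Itgam and Tyrobp at 0 in all 6 libraries. The 6 vessel and fibroblast markers, 3 tested and 0 called, summed to 2.82 to 3.39 CPM in null and 2.13 to 4.17 CPM in wild type, with Cdh5 at 0 in all 6. Wild type replicate 3 stood apart: 44.6% of its counts fell on 1 record that holds 2.11% to 5.90% elsewhere, and its effective depth was 10.1 M, against 21.3 to 25.8 M in the others. Its sample name carries the number 14, next to 11 to 13 of the null libraries, while wild type replicates 1 and 2 carry numbers above 100; what these numbers mean is not given. Pdgfra, an oligodendrocyte precursor marker, shows that split, with 112.6, 128 and 137 CPM in null replicates 1 to 3, against 17.1, 18.3 and 167 CPM in wild type replicates 1 to 3. The summed level of the 10 oligodendrocyte lineage markers was 1484, 1494 and 1576 CPM in null, against 1265, 1165 and 1679 CPM in wild type, with 0 of the 10 called and the mature markers Mbp and Mog under 3 CPM in every library. The 6 astrocyte markers, 0 of them called, summed to 178, 179 and 173 CPM in null, against 144, 176 and 219.9 CPM in wild type. All null libraries were above wild type replicates 1 and 2 for 9 of the 10 oligodendrocyte lineage markers. The same held for 5 of the 6 astrocyte markers, against 31.1% of all tested genes. Wild type replicate 3 was the highest library for 9 of the 10 and 5 of the 6, against 22.6% of all tested genes. Its level over the mean of the other wild type libraries had a median of 1.96 over the 10 and 3.51 over the 6, of which Gja1 alone was lower there, at 0.610. The part of either list in the results below was not tested. Results are therefore given with and without wild type replicate 3.

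No replication gene differed between Smchd1 null and wild type cells at an adjusted p under 0.05. All 41 were tested, 0 were called higher, where 0.507% of all tested genes were, and 0 lower, where 0.0704% were. The fitted differences were small: log2 fold changes ran from -0.28 in Cdc45 to 0.18 in Cdt1, with standard errors of 0.065 to 0.16, and the 95% intervals of all 41 lay within 1.5-fold in either direction, from -0.54 to 0.46 at their widest. Of these intervals 38 spanned 0. The sign was uneven, since 36 of 41 genes were below 0, against 49.7% of all tested genes, and the median of the 41 was -0.13, against 0.0013 over all tested genes. The smallest adjusted p was 0.199, for Lig1, and Lig1, Cdc45 and Uhrf1 were the 3 genes with an unadjusted p under 0.05, a line that 18.6% of all tested genes passed. DESeq2 and limma-voom without sample weights also called 0 of the 41 in either direction. Of all tested genes DESeq2 called 1.27% higher and 1.56% lower, and limma-voom 0.732% higher and 0.162% lower.

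Wild type replicates 1 and 2 were the libraries with the high values. All 3 null libraries were below both of these for 33 of the 41 genes (80.5%), an order that 30.1% of all tested genes showed, and above both for 0 of 41, an order of 31.1% of tested genes. Wild type replicate 3 did not share the high values: it was the lowest wild type library for 38 of 41 genes (92.7%, against 41.8% of all tested genes). It lay within the range of the null libraries for 19 (46.3%, against 34.0% of tested genes) and below all of them for 20 (48.8%, against 32.8%). For the same 33 genes, all 4 libraries named 11 to 14 were below wild type replicates 1 and 2, against 26.1% of tested genes. Only Cdc45 and Lig1 had all 3 null libraries below all 3 wild type ones (4.88% of the 41, against 10.6% of all tested genes), and 0 had all null above all wild type, where 11.4% of tested genes did.

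**Figure D1:**
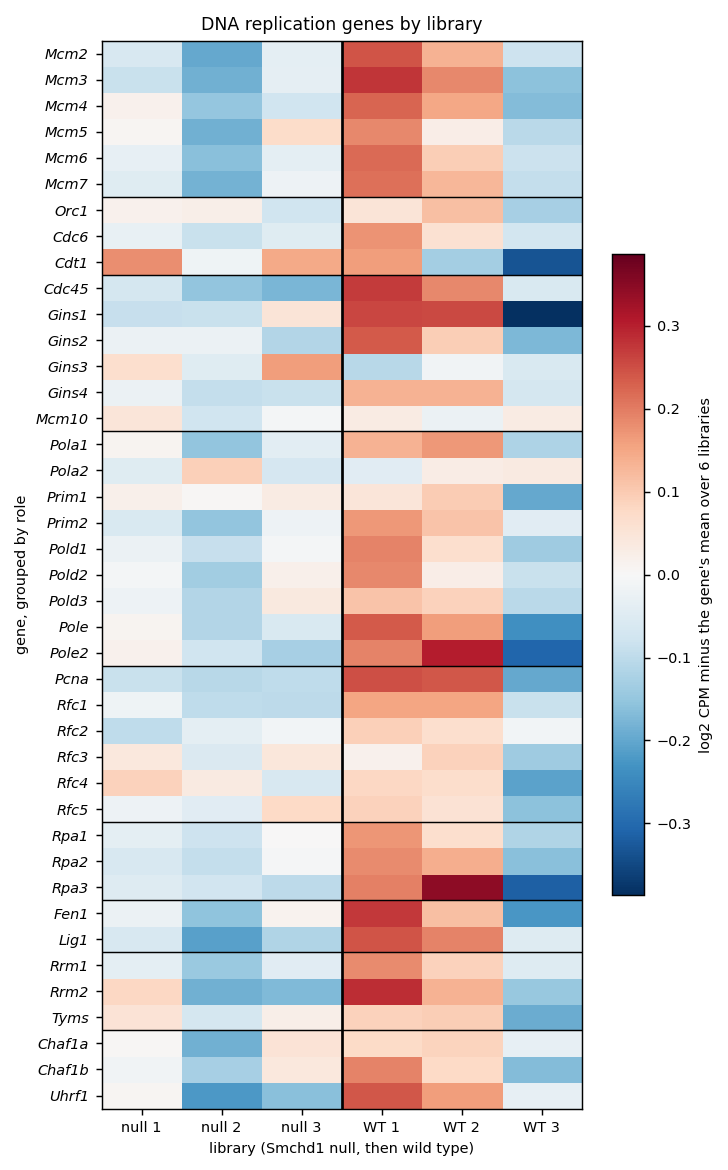
Heat map of the 41 replication genes (lines, grouped by role) in the 6 libraries (columns), coloured by log2 CPM minus the gene's mean over the libraries. Wild type replicates 1 and 2 are red for most genes, while wild type replicate 3 is blue for most. It is the lowest of the 6 libraries for 19 of the 41 (46.3%, against 21.3% of all tested genes).

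Without wild type replicate 3, 25 of the 41 genes (61.0%) were called lower in null cells and 0 higher. In that comparison of 3 null with 2 wild type libraries 19.4% of all tested genes were called lower and 19.7% higher. The 25 log2 fold changes ran from -0.36 to -0.16, so that even the largest corresponds to 0.777 of the wild type level. Limma-voom with sample quality weights keeps all 6 libraries and gave wild type replicate 3 a weight of 0.215, against 1.10 to 1.70 in the others. It called 22 genes lower and 0 higher, with backgrounds of 17.4% lower and 19.0% higher. All 22 are among the 25. The low weight brings this fit near to leaving that library out, so the overlap is not independent support. With a term for the range of the sample-name numbers (11 to 14, or above 100) the signs turned. Then 31 of 41 log2 fold changes were above 0, the median was 0.073 and 0 genes were called, where 0.542% of tested genes were called higher and 0.767% lower. Over the libraries named 11 to 14 alone, in which wild type replicate 3 is the single wild type library, Cdt1 was called higher and 0 genes lower, with backgrounds of 0.853% higher and 1.69% lower. Genotype and the sample-name numbers cannot be told apart in wild type replicates 1 and 2, because no null library carries a number of that range.

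**Figure D2:**
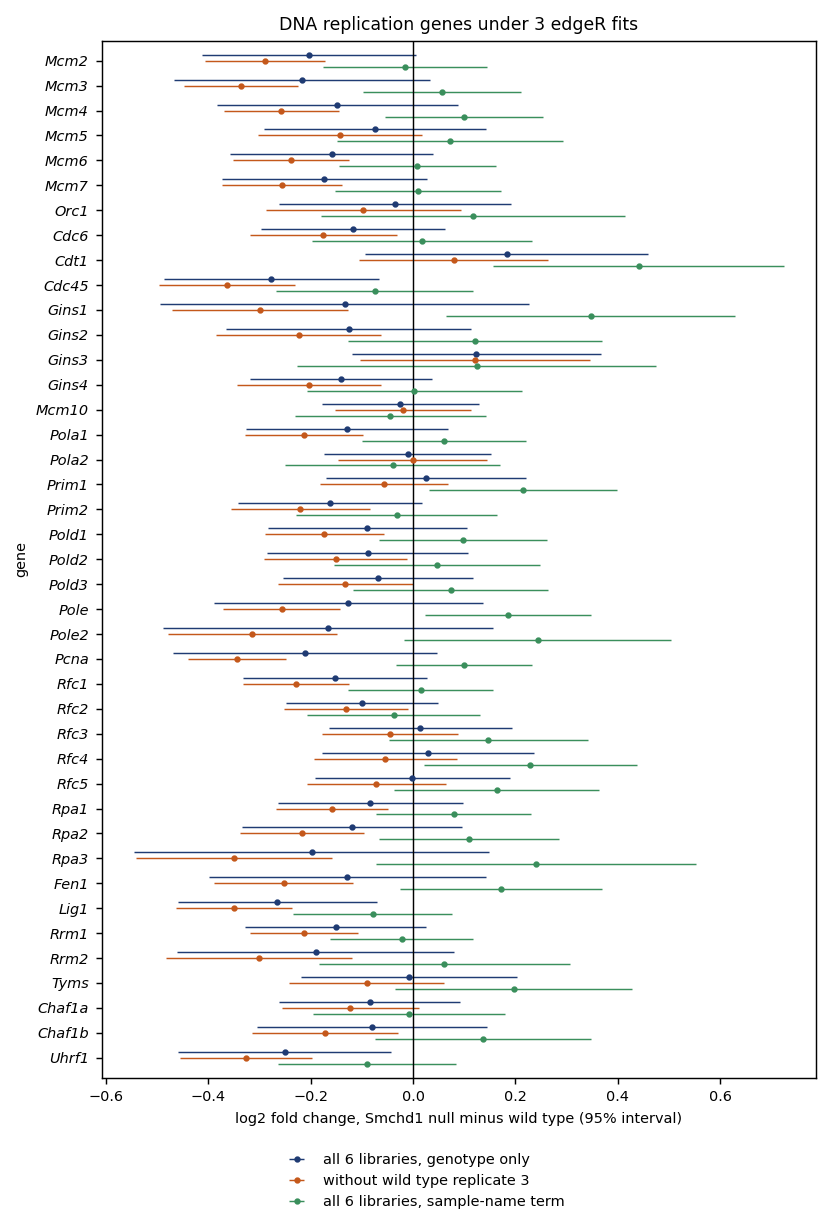
Log2 fold changes, Smchd1 null minus wild type, with 95% intervals for the 41 replication genes under 3 settings: all 6 libraries with genotype only, without wild type replicate 3, and with the sample-name term. The points without wild type replicate 3 lie farthest to the left, down to -0.36, and those with the sample-name term lie mostly to the right of 0.

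The MCM2-7 helicase unwinds the double strand ahead of the fork, and its 6 subunits form a single ring. All 6 log2 fold changes were below 0 in the 6-library test, with a median of -0.17, and none was called. Mcm2 had 180.2, 164 and 183 CPM in null replicates 1 to 3, against 223, 206 and 178 CPM in wild type replicates 1 to 3, and its log2 fold change was -0.20 ± 0.092 (SE, adjusted p = 0.279). Mcm3 had 177, 165 and 184 CPM in null replicates 1 to 3, against 228, 214 and 169 CPM in wild type replicates 1 to 3, a log2 fold change of -0.22 ± 0.11 (SE, adjusted p = 0.316). For both subunits wild type replicates 1 and 2 lay above every null library, and wild type replicate 3 fell inside the null range. Mcm4 was at 211, 188 and 197 CPM in null against 243, 231 and 185 CPM in wild type. Mcm6 was at 230.2, 210.4 and 229 CPM in null against 274, 252 and 222 CPM in wild type, and Mcm7, whose span also holds the microRNAs Mir25, Mir93 and Mir106b, was at 137, 124 and 139 CPM in null against 164, 154 and 133 CPM in wild type. In all 3 null replicate 2 was the lowest null library and wild type replicates 1 and 2 were the highest of the 6, while wild type replicate 3 was the lowest library for Mcm4 and inside the null range for Mcm6 and Mcm7. Mcm5 was at 160.1, 139.9 and 167 CPM in null against 181, 162 and 148 CPM in wild type, and here null replicate 3 exceeded wild type replicate 2. All subunits except Mcm5 were called lower without wild type replicate 3, with Mcm2 at -0.29 (adjusted p = 0.000639) and Mcm3 at -0.34 (adjusted p = 0.00011). With the sample-name term 5 of the 6 were above 0, and Mcm2 was at -0.015.

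Per base of the deposited gene length the ring's subunits were not level. Their order rests in part on that length. By mean CPM, Mcm7 (133 in null, 150 in wild type) was below Mcm5 (156 in null, 164 in wild type). RPKM, the CPM divided by the deposited gene length in kilobases, was highest for Mcm6 and lowest for Mcm5 in all 6 libraries, with a ratio of 1.62 to 1.77 in null and 1.77 to 1.83 in wild type. Mcm6 averaged 77.0 ± 3.85 RPKM in null and 85.9 ± 8.96 RPKM in wild type, and Mcm5 45.5 ± 4.16 RPKM in null and 47.9 ± 4.83 RPKM in wild type (SD, n = 3 each). Between them were Mcm3 at 60.9 ± 3.26 RPKM in null and 70.6 ± 10.8 RPKM in wild type and Mcm7 at 55.7 ± 3.30 RPKM in null and 62.7 ± 6.67 RPKM in wild type. Mcm4 averaged 55.3 ± 3.19 RPKM in null and 61.2 ± 8.47 RPKM in wild type and Mcm2 52.2 ± 3.08 RPKM in null and 60.0 ± 6.75 RPKM in wild type, so that Mcm7, Mcm4 and Mcm2 overlapped within a genotype once their spread is counted.

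Origin licensing is the step at which Orc1, the large subunit of the origin recognition complex, and the loading factors Cdc6 and Cdt1 place the MCM ring on DNA. The fitted log2 fold changes of the 3 genes did not share a sign, and the 95% interval of each spanned 0. Cdt1 had 43.1, 37.6 and 42.1 CPM in null replicates 1 to 3, against 42.5, 34.7 and 30.2 CPM in wild type replicates 1 to 3, and its log2 fold change of 0.18 ± 0.12 (SE, adjusted p = 0.419) was the highest of the 41. Cdc6 had 32.4, 31.2 and 32.0 CPM in null replicates 1 to 3, against 37.2, 34.5 and 31.5 CPM in wild type replicates 1 to 3, a log2 fold change of -0.12 ± 0.079 (SE, adjusted p = 0.423). Cdt1 thus ran highest in null replicate 1 and lowest in wild type replicate 3, with overlapping groups, whereas for Cdc6 wild type replicates 1 and 2 were above all null libraries. Orc1 was at 14.9, 15.0 and 13.998 CPM in null against 15.3, 16.0 and 13.5 CPM in wild type, with wild type replicates 1 and 2 just above the null libraries and wild type replicate 3 below them. Part of its span, 3632 bases, overlaps Prpf38a, a splicing factor gene, and a kit that does not mark strand cannot separate reads there. Of the 3, Cdc6 alone was called lower without wild type replicate 3, at -0.18 (adjusted p = 0.0494), and Cdt1 was at 0.079 (adjusted p = 0.492). Over the libraries named 11 to 14 Cdt1 was called higher, with a log2 fold change of 0.44 ± 0.11 (SE, adjusted p = 0.0195), against a single wild type library whose spread is taken from the null ones. Per length, Cdt1 was the highest and Orc1 the lowest of the 3 in all 6 libraries, by 3.45 to 4.14 times in null and 2.99 to 3.83 times in wild type.

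Helicase activation turns the loaded ring into a working helicase by adding Cdc45 and the GINS complex of Gins1 to Gins4, with Mcm10 needed for the start of unwinding. Cdc45 was the gene with the lowest fold change of all 41. It had 48.0, 45.2 and 44.4 CPM in null replicates 1 to 3, against 60.7, 57.2 and 48.3 CPM in wild type replicates 1 to 3, every null library below every wild type one, for a log2 fold change of -0.28 ± 0.092 (SE, adjusted p = 0.205). Leaving out wild type replicate 3, it was -0.36 (adjusted p = 0.000247). With the sample-name term, where the genotype difference rests on wild type replicate 3, it was -0.075 ± 0.091 (SE). Both values below 0 follow from the order of the libraries just given and add no separate support. The GINS subunits, which act as 1 complex, differed in the sign of their fitted fold changes, but the 95% interval of each spanned 0. Gins4 had 31.5, 30.0 and 30.1 CPM in null replicates 1 to 3, against 35.0, 35.0 and 30.5 CPM in wild type replicates 1 to 3, a log2 fold change of -0.14 ± 0.078 (SE, adjusted p = 0.348). Gins1 was at 18.0, 18.1 and 19.9 CPM in null against 22.9, 22.9 and 14.7 CPM in wild type and Gins2 at 25.2, 25.2 and 23.7 CPM in null against 30.2, 27.3 and 22.7 CPM in wild type, and for both wild type replicate 3 was the lowest of the 6 libraries. Gins3 was at 11.04, 10.2 and 11.8 CPM in null against 9.81, 10.4 and 10.1 CPM in wild type, with a log2 fold change of 0.12 ± 0.11 (SE) that did not pass the test. Gins3 had the smallest counts of the 41 genes, with 102 reads in wild type replicate 3, for which an exact Poisson 95% interval of 83.2 to 124 reads (8.25 to 12.3 CPM) covers counting error only. Mcm10 was at 53.5, 49.1 and 51.5 CPM in null against 52.9, 51.0 and 53.0 CPM in wild type, with overlapping groups. Without wild type replicate 3, Cdc45, Gins1, Gins2 and Gins4 were called lower, and Gins3 and Mcm10 were not. Per length, Gins3 was the lowest of these 6 genes in every library, while the highest was Gins2 in 4 libraries and Cdc45 in wild type replicates 2 and 3.

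Primase and the replicative polymerases were the role with the most genes, and 8 of its 9 log2 fold changes were below 0, with a median of -0.09. Polymerase alpha and primase make the primers, polymerase delta copies the lagging strand and polymerase epsilon the leading strand. Prim2, the large primase subunit, had 44.0, 41.2 and 45.2 CPM in null replicates 1 to 3, against 51.5, 49.5 and 44.5 CPM in wild type replicates 1 to 3, a log2 fold change of -0.16 ± 0.079 (SE, adjusted p = 0.304). Pola1, the catalytic subunit of polymerase alpha, had 117, 104 and 112.7 CPM in null replicates 1 to 3, against 127, 130.04 and 107 CPM in wild type replicates 1 to 3, a log2 fold change of -0.13 ± 0.087 (SE, adjusted p = 0.425). Both were higher in wild type replicates 1 and 2 than in any null library, and wild type replicate 3 was inside the null range. Of their partners in the same complex, Pola2, the regulatory subunit, lacked that pattern at 37.9, 41.7 and 37.4 CPM in null against 38.0, 39.9 and 40.1 CPM in wild type, with the highest value in null replicate 2. Prim1, the catalytic primase subunit, was at 51.6, 51.1 and 52.1 CPM in null against 52.6, 54.5 and 44.5 CPM in wild type, and its fold change was 0.025 on the log2 scale. For Prim1 wild type replicates 1 and 2 were above the null libraries by under 1 CPM at the closest, and wild type replicate 3 was the lowest of the 6. In polymerase delta, the catalytic Pold1 was at 92.8, 88.6 and 93.7 CPM in null against 108, 98.7 and 85.7 CPM in wild type. The accessory subunits were at 60.6, 55.5 and 61.7 CPM in null against 69.3, 62.0 and 57.4 CPM in wild type for Pold2 and at 53.0, 49.7 and 55.1 CPM in null against 58.0, 57.1 and 50.01 CPM in wild type for Pold3. In all 3 the pair of wild type replicates 1 and 2 was highest, although wild type replicate 2 exceeded null replicate 3 of Pold2 by under 1 CPM. In polymerase epsilon, the catalytic Pole was at 101, 92.8 and 96.5 CPM in null against 118, 112 and 85.1 CPM in wild type and Pole2 at 24.2, 22.7 and 21.9 CPM in null against 27.3, 29.5 and 19.3 CPM in wild type. Wild type replicate 3 was the lowest of the 6 libraries for both, by a wide step for Pole2. Prim2, Pola1, Pold1, Pole and Pole2, 5 of the 9, were called lower without wild type replicate 3, with Pole2 at -0.31 and Prim2 at -0.22. With the sample-name term 7 of the 9 were above 0. Pold2 had the highest level per length of the 9 genes in all 6 libraries.

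PCNA is the ring that holds polymerases on DNA, and replication factor C, made of Rfc1 to Rfc5, opens and closes that ring around the template. Pcna and Rfc1 had the lowest log2 fold changes here and the other 4 clamp loader genes lay between -0.10 in Rfc2 and 0.029 in Rfc4, the median of the 6 being -0.05. Rfc1, the large subunit, had 145, 137 and 137 CPM in null replicates 1 to 3, against 163, 163 and 138 CPM in wild type replicates 1 to 3, a log2 fold change of -0.15 ± 0.079 (SE, adjusted p = 0.325). Pcna had 169.8, 167 and 169 CPM in null replicates 1 to 3, against 214, 213 and 157 CPM in wild type replicates 1 to 3, a log2 fold change of -0.21 ± 0.11 (SE, adjusted p = 0.336). The 3 null libraries of Pcna lay within 3 CPM of each other, while wild type replicate 3 was the lowest library and the other wild type libraries the highest. Rfc2 was at 60.1, 62.6 and 63.9 CPM in null against 68.6, 67.4 and 63.9 CPM in wild type and Rfc3 at 49.0, 45.9 and 49.1 CPM in null against 48.3, 50.7 and 43.4 CPM in wild type. Wild type replicates 1 and 2 were the highest libraries of Rfc2, as wild type replicate 2 was of Rfc3. Rfc4 was at 42.9, 41.3 and 38.7 CPM in null against 42.6, 42.3 and 34.9 CPM in wild type and Rfc5 at 42.2, 41.6 and 45.2 CPM in null against 45.6, 44.6 and 38.4 CPM in wild type. For Rfc3, Rfc4 and Rfc5 wild type replicate 3 was again the lowest library, and their other libraries overlapped between the genotypes. Without wild type replicate 3, Pcna at -0.34 (adjusted p = 2.11e-05) and Rfc1 at -0.23 (adjusted p = 0.00156) were called lower and the other 4 were not. Pcna has 2 pseudogenes with names in the annotation, and reads shared with such copies could not be traced.

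Replication protein A coats the single strands behind the helicase, and its subunits Rpa1, Rpa2 and Rpa3 form a trimer. All 3 fold changes were below 0, with a median of -0.12, and none was called. Rpa3 had 14.2, 13.96 and 13.7 CPM in null replicates 1 to 3, against 16.8, 18.7 and 11.8 CPM in wild type replicates 1 to 3, a log2 fold change of -0.20 ± 0.15 (SE, adjusted p = 0.476). Rpa2 had 58.6, 57.4 and 61.1 CPM in null replicates 1 to 3, against 69.5, 67.5 and 54.8 CPM in wild type replicates 1 to 3, a log2 fold change of -0.12 ± 0.094 (SE, adjusted p = 0.486). Rpa1 was at 126, 122 and 129 CPM in null against 145, 135 and 119 CPM in wild type. In each, wild type replicates 1 and 2 were the highest libraries and wild type replicate 3 was the lowest. All 3 were called lower without wild type replicate 3, from -0.35 in Rpa3 to -0.16 in Rpa1, and with the sample-name term all 3 were above 0, Rpa3 at 0.24. Rpa1 had the highest level per length of the trimer and Rpa3 the lowest in every library.

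Okazaki fragment maturation needs Fen1, the flap nuclease that trims the primer, and Lig1, the ligase that seals the nick. Lig1 had the smallest p of all 41 genes. It had 118, 106 and 113.5 CPM in null replicates 1 to 3, against 146, 140.4 and 119 CPM in wild type replicates 1 to 3, with the groups apart by about 1 CPM between null replicate 1 and wild type replicate 3, for a log2 fold change of -0.26 ± 0.086 (SE, adjusted p = 0.199). Fen1 had 72.5, 66.2 and 74.3 CPM in null replicates 1 to 3, against 88.9, 79.8 and 63.0 CPM in wild type replicates 1 to 3, a log2 fold change of -0.13 ± 0.12 (SE, adjusted p = 0.551). The pair differ in wild type replicate 3, which sat just above the null libraries for Lig1 and below them for Fen1. Both were called lower without wild type replicate 3, Lig1 at -0.35 (adjusted p = 8.53e-05) and Fen1 at -0.25 (adjusted p = 0.00521). With the sample-name term Lig1 was at -0.079 and Fen1 at 0.17, neither called. A stretch of 1547 bases of Lig1 overlaps Zswim9.

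Deoxynucleotide synthesis supplies the building blocks: ribonucleotide reductase, with Rrm1 as its large and Rrm2 as its S phase small subunit, and thymidylate synthase, Tyms. Rrm1 had 357, 331 and 355 CPM in null replicates 1 to 3, against 416, 389 and 353 CPM in wild type replicates 1 to 3, a log2 fold change of -0.15 ± 0.078 (SE, adjusted p = 0.323). Rrm2 had 165, 137 and 138 CPM in null replicates 1 to 3, against 189.6, 171 and 141 CPM in wild type replicates 1 to 3, a log2 fold change of -0.19 ± 0.12 (SE, adjusted p = 0.395). Wild type replicates 1 and 2 were above all null libraries for both, by about 6 CPM at the closest for Rrm2, and wild type replicate 3 was with the null libraries. Tyms was at 28.8, 26.5 and 28.2 CPM in null against 29.5, 29.7 and 24.3 CPM in wild type and had a fold change of -0.0082 on the log2 scale. Wild type replicate 3 was its lowest library, and a Tyms pseudogene is named in the annotation. Without wild type replicate 3, Rrm1 at -0.21 (adjusted p = 0.00292) and Rrm2 at -0.30 (adjusted p = 0.0147) were called lower, and Tyms was not.

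Chromatin is rebuilt behind the fork by the CAF-1 complex, whose subunits Chaf1a and Chaf1b deposit new histones, and Uhrf1 brings the methyltransferase Dnmt1 to newly copied DNA. Uhrf1 had 206, 176 and 183 CPM in null replicates 1 to 3, against 243, 229.6 and 201 CPM in wild type replicates 1 to 3, a log2 fold change of -0.25 ± 0.092 (SE, adjusted p = 0.223). Chaf1a had 95.4, 83.6 and 98.5 CPM in null replicates 1 to 3, against 100.1, 101 and 93.1 CPM in wild type replicates 1 to 3, a log2 fold change of -0.085 ± 0.078 (SE, adjusted p = 0.546). Chaf1b was at 45.8, 42.4 and 47.6 CPM in null against 52.8, 48.9 and 41.2 CPM in wild type. For Uhrf1 wild type replicate 3 was above null replicates 2 and 3 but below null replicate 1, so the groups overlapped by that 1 library. Null replicate 3 of Chaf1a came within 2 CPM of wild type replicate 1, and 982 bases of Chaf1a overlap Ubxn6. Uhrf1 alone of the 3 was called lower without wild type replicate 3, at -0.33 (adjusted p = 0.000626), and it was at -0.090 with the sample-name term (adjusted p = 0.696).

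Levels per length spread over the 41 genes by far more than any genotype difference. Pcna was highest at 134 ± 1.04 RPKM in null and 155 ± 25.7 RPKM in wild type, followed by Rrm1 at 87.0 ± 3.56 RPKM in null and 96.6 ± 7.83 RPKM in wild type (SD, n = 3 each). Rrm2, the partner of Rrm1 in the reductase, averaged 67.2 ± 7.14 RPKM in null and 76.6 ± 11.4 RPKM in wild type. At the low end were Gins3 at 4.57 ± 0.332 RPKM in null and 4.20 ± 0.133 RPKM in wild type and Orc1 at 4.86 ± 0.186 RPKM in null and 4.95 ± 0.426 RPKM in wild type. Cdc6 averaged 6.77 ± 0.131 RPKM in null and 7.31 ± 0.616 RPKM in wild type and Tyms 7.32 ± 0.316 RPKM in null and 7.31 ± 0.803 RPKM in wild type, so the loading factors Orc1 and Cdc6 were both well below the ring they load. Of the 40 pairs of neighbours in this order, the libraries were apart in 6 for null and in 5 for wild type, and in all other pairs the neighbours overlapped. The spread between replicates was also uneven: the coefficient of variation had a median over the 41 genes of 5.00% in null and 10.5% in wild type, where replicate 3 is included.

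**Figure D3:**
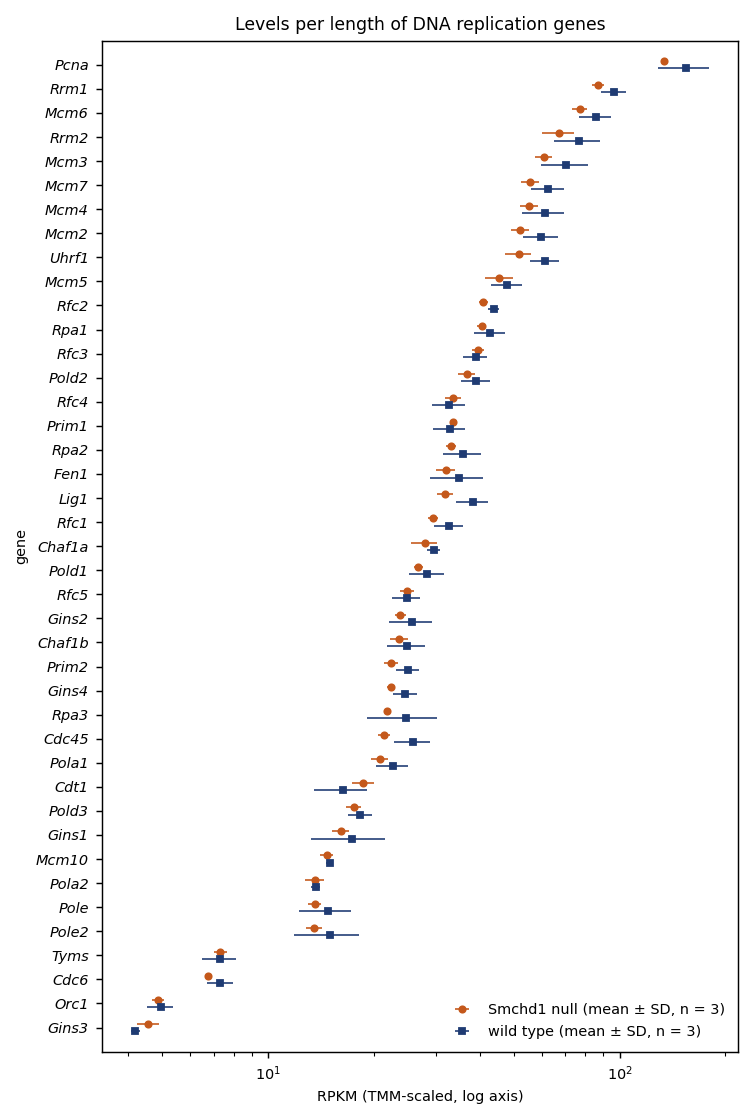
Mean RPKM with SD bars (n = 3 per genotype, log axis) of the 41 replication genes, ordered by the null mean. Pcna is at the top with 134 RPKM in null and 155 RPKM in wild type, and Gins3 is at the bottom with 4.57 RPKM in null and 4.20 RPKM in wild type.

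Replication genes and mitotic genes ran nearly in parallel over the null libraries but not over the wild type ones. The summed level of the 41 genes was 3750.4, 3459 and 3692 CPM in null replicates 1 to 3, against 4348, 4133 and 3519 CPM in wild type replicates 1 to 3. That of 20 mitotic genes, which peak later in the cycle, was 3671, 3359.9 and 3541 CPM in null replicates 1 to 3, against 3620.0, 3528 and 3577 CPM in wild type replicates 1 to 3. The ratio of the sums was 1.02, 1.03 and 1.04 in null replicates 1 to 3, against 1.20, 1.17 and 0.984 in wild type replicates 1 to 3. The ratio was thus nearly constant over the null libraries and highest in wild type replicates 1 and 2. Null replicate 2 had the lowest sum of both sets among the null libraries, and it was the lowest null library for 31 of the 41 genes (75.6%, against 32.1% of all tested genes). The level of wild type replicate 3 over the mean of the other wild type libraries had a median of 0.831 over the 41 genes, from 0.641 in Gins1 to 1.03 in Pola2, against 1.01 over all tested genes.

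**Figure D4:**
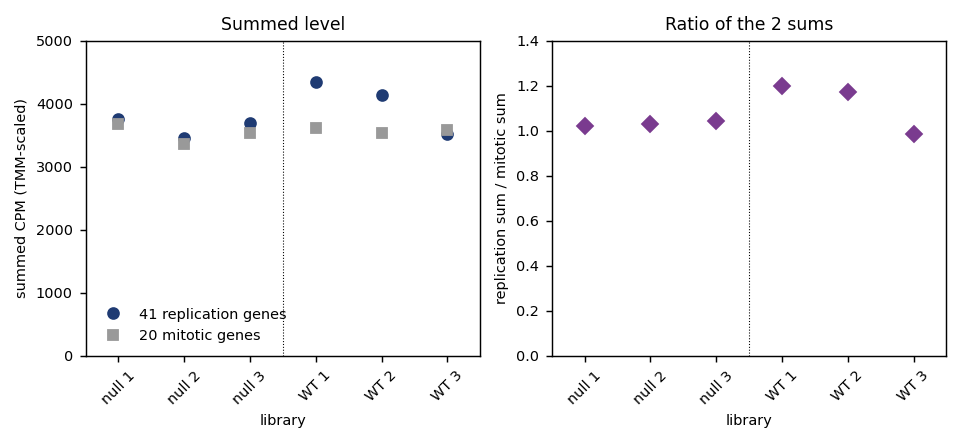
Left, summed CPM of the 41 replication genes and of 20 mitotic genes in each library. Right, the ratio of these sums, which is 1.02 to 1.04 in the null libraries, 1.20 and 1.17 in wild type replicates 1 and 2 and 0.984 in wild type replicate 3.

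Genes with and without an E2F-type match had medians close to each other. The median log2 fold change was -0.12 over the 15 genes with a match, -0.09 over the 19 without and -0.13 over the 7 genes with no window. Both sets reach nearly the same low end, at Lig1 for genes with a match and at Cdc45 for genes without. Cdt1 and Gins3, the highest of the 41, each have a match, at 33 in Cdt1 and at -41 in Gins3.

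The wider pathway gave 109 further genes in 5 lists, all of them tested, and none was called higher or lower in the 6-library test. Their median log2 fold change was -0.04, and 67 of 109 were below 0. Among 17 origin and firing factors, 7 were below 0, and the genes with the smallest p were Mtbp, a firing factor, at -0.18 ± 0.078 and Orc6, of the origin recognition complex, at -0.18 ± 0.081 (SE). Among 26 fork, checkpoint and Okazaki fragment factors, 17 were below 0. There Rnaseh2a, the catalytic subunit of the nuclease that removes RNA from DNA, was at 24.99, 25.6 and 25.9 CPM in null against 32.9, 32.3 and 27.6 CPM in wild type, a log2 fold change of -0.29 ± 0.085 (SE, adjusted p = 0.174). The checkpoint kinase Atr, with the opposite sign, was at 73.6, 70.0 and 71.3 CPM in null against 52.9, 55.7 and 69.6 CPM in wild type, a log2 fold change of 0.28 ± 0.10 (SE, adjusted p = 0.223). Among 15 nucleotide supply genes, 10 were below 0, with the dCTP pyrophosphatase Dctpp1 at -0.28 ± 0.11 (SE). Among 31 regulators of the step from G1 to S, 21 were below 0. The cyclin-dependent kinase inhibitors Cdkn1a and Cdkn1b led it by p. Cdkn1b was at 92.4, 90.4 and 81.7 CPM in null against 117, 124 and 91.7 CPM in wild type, a log2 fold change of -0.33 ± 0.11 (SE, adjusted p = 0.205). Cdkn1a was at 169, 177 and 181 CPM in null against 202, 193 and 216 CPM in wild type, a log2 fold change of -0.21 ± 0.068 (SE, adjusted p = 0.195). The 20 mitotic genes, 12 of them below 0, had a median of -0.02, with the spindle genes Nusap1 at -0.15 ± 0.063 and Kif23 at -0.12 ± 0.075. Without wild type replicate 3, 38 of the 109 genes were called lower and 9 higher, against the backgrounds given above for that comparison. With the sample-name term Cdc25a, the phosphatase that activates Cdk2, was called higher at 0.43 and Cdkn1a lower at -0.30.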

How the data were processed

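The deposited values are raw counts per gene with an Entrez ID and a gene length, read from 6 single-read libraries made with the TruSeq RNA kit v2, per the labels' protocols; that kit does not mark strand. The submitters' processing notes name CASAVA 1.8.2 and featureCounts, also limma 3.22.0 and edgeR 3.8.2, with the build mm10. Which aligner and annotation were used is not given in the sources used here. Total counts ran from 18608881 to 23253367. Symbols and coordinates came from RefSeq on GRCm38.p6, which matched 25275 of 27179 IDs (93.0%).

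Counts were filtered with filterByExpr, scaled by TMM and tested with edgeR 4.0.16 in R 4.3.3 (robust quasi-likelihood F-test, two-sided, genotype as the only term), with Benjamini-Hochberg adjustment over 14207 genes and a threshold of 0.05. CPM uses the TMM-scaled library size. Standard errors were derived from the fold change and F. Alternatives were DESeq2 1.42.0, limma-voom of limma 3.58.1 with and without sample quality weights, RLE scaling, no filter, a filter of 2 CPM in 3 libraries, thinning to equal totals, the replicate number as a block, a sample-name term and leaving out each library. Exact Poisson intervals cover counting error only.

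The 41 genes and the other lists were chosen with earlier results of these data known, so no test was made over a list. Full statistics are given for the 2 genes with the smallest p of each role, values for all 41, and of each other list the 2 genes with the smallest p are named, except 1 that is not reported here. Pdgfra, Cdc25a and single markers were named after their values were seen. Promoters were searched with exact letters. Of the 41 genes, 11 overlap another counted gene, where reads cannot be told apart. Protein sequences were not used here.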

Additional observations from a re-analysis of the deposited data

How the results depend on the processing

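That no replication gene passed the test held under RLE scaling, no filter, the stricter filter, thinning, the replicate block, the sample-name term, leaving out records above 1%, DESeq2, limma-voom without weights and leaving out any library other than wild type replicate 3. The exceptions were leaving out that library, sample quality weights with 22 called lower, and the libraries named 11 to 14. In the settings with 0 calls among the 41, 0.202% to 1.27% of all tested genes were called higher and 0.00695% to 1.56% lower. At such shares 0 calls does not set the 41 genes apart. Leaving out 1 library at a time gave 0 to 25 replication genes lower, and of the 109 other pathway genes 0 to 9 higher and 0 to 38 lower. Quality weights called 8 of the 109 higher and 28 lower. The sample-name term called 1 higher and 1 lower, and the libraries named 11 to 14 called 1 replication gene higher and 2 of the 109 higher and 1 lower. The median of the 41 was -0.11 with the replicate block, 0.073 with the sample-name term and 0.072 over the libraries named 11 to 14. The groups share replicate numbers, but the deviations of same-numbered libraries from their group means correlated at -0.0059, 0.027 and -0.041. Null replicate 2 alone correlated best with its own number, so the numbers were not taken to pair the samples. The replicate block changed no call among the 41 or the 109 genes. Over all 14207 tested genes it called 48 higher and 6 lower, against 72 and 10 without it. For the 12 replication genes with an adjusted p printed for an alternative, that p was at its lowest 2.11e-05 to 0.0494 and at its highest 0.690 to 0.970 over the alternatives. Leaving out records above 1% of a library and keeping the libraries named 11 to 14 were chosen after seeing the data.

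Log2 fold changes that changed sign with the sample-name term were Mcm3 0.057, Mcm4 0.10, Mcm5 0.072, Mcm6 0.0083, Mcm7 0.0089, Orc1 0.12, Cdc6 0.017, Gins1 0.35, Gins2 0.12, Gins4 0.0025, Pola1 0.061, Pold1 0.10, Pold2 0.047, Pold3 0.073, Pole 0.19, Pole2 0.24, Pcna 0.10, Rfc1 0.015, Rfc5 0.16, Rpa1 0.079, Rpa2 0.11, Rpa3 0.24, Fen1 0.17, Rrm2 0.061, Tyms 0.20 and Chaf1b 0.14. Over the libraries named 11 to 14 they were Mcm3 0.056, Mcm4 0.10, Mcm5 0.071, Mcm6 0.0071, Mcm7 0.0077, Orc1 0.12, Cdc6 0.016, Gins1 0.35, Gins2 0.12, Gins4 0.0013, Pola1 0.059, Pold1 0.10, Pold2 0.046, Pold3 0.072, Pole 0.18, Pole2 0.24, Pcna 0.10, Rfc1 0.013, Rfc5 0.16, Rpa1 0.078, Rpa2 0.11, Rpa3 0.24, Fen1 0.17, Rrm2 0.060, Tyms 0.20 and Chaf1b 0.14; both settings rest on wild type replicate 3 as the wild type library in that range. Under the stricter filter they were Pola2 0.0041, Rfc5 0.014 and Tyms 0.0073, under quality weights Pola2 0.010, Prim1 -0.038, Rfc3 -0.034 and Rfc4 -0.035, under thinning Pola2 0.0063, under the replicate block Rfc5 0.0026 and Tyms 8.1e-06, and without records above 1% Rfc5 0.00084. Leaving out 1 library at a time moved Mcm5 from -0.14 to 0.0031, Orc1 from -0.10 to 0.014, Mcm10 from -0.057 to 0.0044, Pola2 from -0.063 to 0.017, Prim1 from -0.057 to 0.079, Rfc3 from -0.045 to 0.061, Rfc4 from -0.054 to 0.075, Rfc5 from -0.072 to 0.043 and Tyms from -0.091 to 0.035, across 0. The cause of these changes was not tested.

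With 3 libraries a group and a wild type spread widened by 1 library, the 95% intervals of these genes reach, at their widest, 0.685 and 1.38 times the wild type level. That all 41 intervals lay within 1.5-fold did not hold in every setting. It held for 39 genes with the sample-name term, and for 39, 40 and 39 without null replicates 1, 2 and 3. Without any 1 wild type library it held for all 41. Over the libraries named 11 to 14 it did not hold for every gene. Intervals were not computed for DESeq2 or for limma-voom with or without weights. The shallowest library sets the counting error of the low genes, such as Gins3.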
